A study of Mus musculus with 2 samples.

Results

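The genes described here code for enzymes that remove superoxide, peroxides and oxidised sulphur groups, for glutathione transferases and for metallothioneins. They were chosen by gene symbol alone: superoxide dismutases, catalase, glutathione peroxidases, peroxiredoxins, thioredoxins, the thioredoxin reductases *Txnrd2* and *Txnrd3*, glutaredoxins, glutathione synthetase and reductase, methionine sulfoxide reductases, microsomal and soluble glutathione transferases, and the metallothioneins *Mt1* to *Mt4*. A probe set was kept when the annotation of the array gave it exactly 1 gene. This found 94 probe sets of 56 genes, out of 34945 probe sets of 18193 genes. *Prdx1*, *Prdx5* and *Prdx6* were not analysed here. The rule itself uses no measured value.

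Gene expression was measured in mouse neonatal ventricular cardiomyocytes (mNVCM) on 2 Affymetrix arrays, with cells isolated from C57BL6/J pups at postnatal day 2 and cultured for 48 to 72 h. Both cultures were first kept for 1 h in medium with 0.5% serum and both received 1 μM doxorubicin (Dox), an anthracycline used against cancer that can damage the heart. The culture named hAFS-CM + Dox was pre-treated for 3 h with the secretome of human amniotic fluid stem cells, which the study collected from hypoxic cells, and the culture named Dox was not. The deposited labels give 6 h of Dox for hAFS-CM + Dox and 21 h for Dox, while the study's methods give 6 h for both. The pre-treatment and a difference in Dox hours therefore cannot be told apart. Neither array is an untreated control, so no value below is a response to Dox itself. With 1 array per condition there is no replicate error, no test and no p-value, and the values describe only this pair of arrays.

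Superoxide, made by the respiratory chain or by redox cycling of a quinone such as Dox, is turned into hydrogen peroxide by superoxide dismutases. Catalase, glutathione peroxidases and peroxiredoxins then reduce the peroxide, and the last of these draw on thioredoxin while the glutathione peroxidases draw on glutathione. Thioredoxin reductases and glutathione reductase restore these carriers with NADPH. Glutathione transferases couple glutathione to reactive lipids and drugs, methionine sulfoxide reductases repair oxidised methionine, and metallothioneins bind zinc and copper through their many cysteines. The heart is known for its low catalase activity, and raised catalase or metallothionein in the hearts of transgenic mice is known to lessen Dox injury.

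All values are on the log2 scale of RMA, and a difference is the log2 ratio of hAFS-CM + Dox over Dox, so that 1 is 2-fold higher and -1 is 2-fold lower. A gene takes the value of its brightest probe set, the one with the highest mean of both arrays. Levels are not compared between genes, since probe sets bind with different strength. The median of all values was 5.10, and a gene below it on both arrays is called low-signal here. Where a gene had several probe sets with a mean of at least 5.10, their log2 ratios had a pooled SD of 0.20 around the gene's mean. This SD, from 5166 genes, serves as a yardstick of measurement within these arrays and holds no variation between cultures. Weaker probe sets were left out of it. It may therefore not hold for low-signal genes, though the counts below apply it to all genes. All 10 cardiomyocyte markers were well measured, from 10.05 to 15.05 for Dox and from 9.78 to 14.99 for hAFS-CM + Dox. The 7 fibroblast markers ranged from 7.18 to 11.81 for Dox and from 6.15 to 12.05 for hAFS-CM + Dox, with a median log2 ratio of -0.13. Beyond the SD between probe sets, 2 of them were higher and 3 were lower. *Tcf21* had -1.03, but 0.18 at its other probe set, and *Pdgfra* had 0.79, but -0.05 at the lowest of its 3 probe sets. Of 6 macrophage markers, 5 were above 0 and 3 were higher beyond the SD between probe sets, with a median of 0.23. *Lyz2* alone was below 0, with 11.91 for Dox and 11.80 for hAFS-CM + Dox. The summed level of the 6, as a log2 value, was 12.18 for Dox and 12.14 for hAFS-CM + Dox. This sum came mostly from *Lyz2* and so says little of the other markers. The medians of 6 endothelial and 4 smooth muscle markers were 0.09 and 0.13. Over all genes, 18.5% were higher and 16.3% were lower beyond the SD between probe sets. The part of these cell types in the differences below was not tested. Fewer cells of a type and less RNA per cell cannot be told apart in such samples.

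Of the 56 genes, none was higher by 2-fold or more with hAFS-CM + Dox and 1, *Msrb2*, was lower by 2-fold or more. Over all genes, 0.506% were higher and 0.214% were lower by this rule. At 1.5-fold, *Gss* was higher, against 2.32% of all genes, and *Msrb2* and *Gstt2* were lower, against 1.52% of all genes. No member was 3-fold higher or lower, beside 0.132% and 0.0165% of all genes. Log2 ratios of the 56 genes ran from -1.07 to 0.71, with a median of -0.05, beside 0.01 for all genes. Beyond the SD between probe sets, 7 genes (12.5%) were higher and 10 (17.9%) were lower, beside 18.5% and 16.3% of all genes. The other 39 genes (69.6%) lay within that SD, as did 65.2% of all genes. Ratios below 0 were found for 38 of the 56 genes (67.9%) and for 48.7% of all genes, but most of these were small: the lower and upper quartiles were -0.18 and 0.08, against -0.13 and 0.15 for all genes. Most antioxidant genes thus differed little between the arrays, as did most of all genes, and the larger differences lay in a few members.

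**Figure D1:**
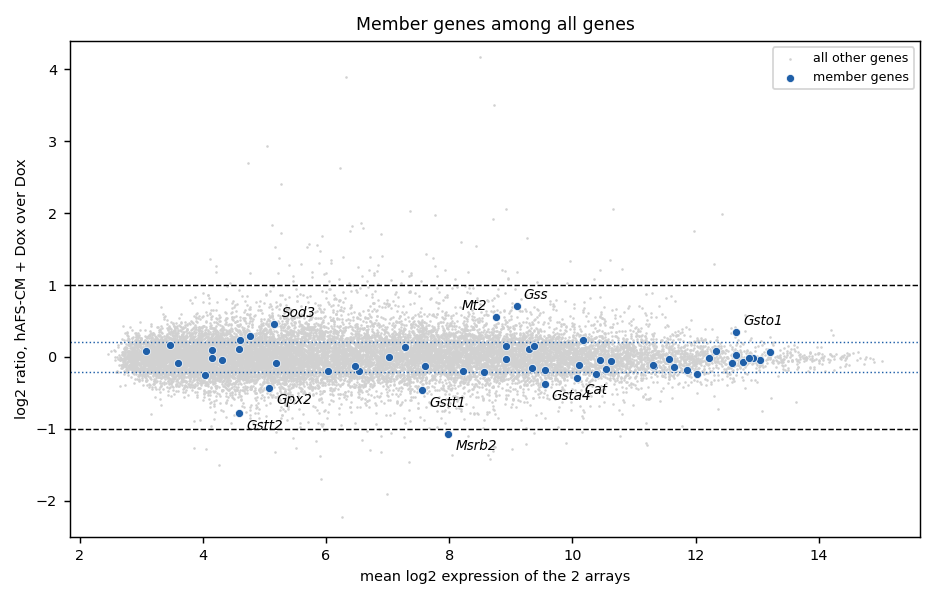
Log2 ratio of hAFS-CM + Dox over Dox for each gene (vertical) against the mean of both log2 values (horizontal), with the 56 member genes in blue and all other genes in grey. Dashed lines mark 2-fold and dotted lines the SD between probe sets (0.20). Of the blue points *Msrb2* alone lies beyond a dashed line, and most blue points lie between the dotted lines.

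Of the 56 genes, 45 had a log2 value at or above 5.10 on at least 1 array and 11 were low-signal. The low-signal members were *Glrx3*, *Gpx5*, *Gpx6*, *Mt4* and the transferase genes *Gsta2*, *Gsta3*, *Gsto2*, *Gstp3*, *Gstt2*, *Gstt3* and *Gstt4*. The arrays do not show whether these 11 were above background. Among the 45 others the median log2 ratio was -0.09, beside 0.01 for all genes at or above the same signal.

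**Figure D2:**
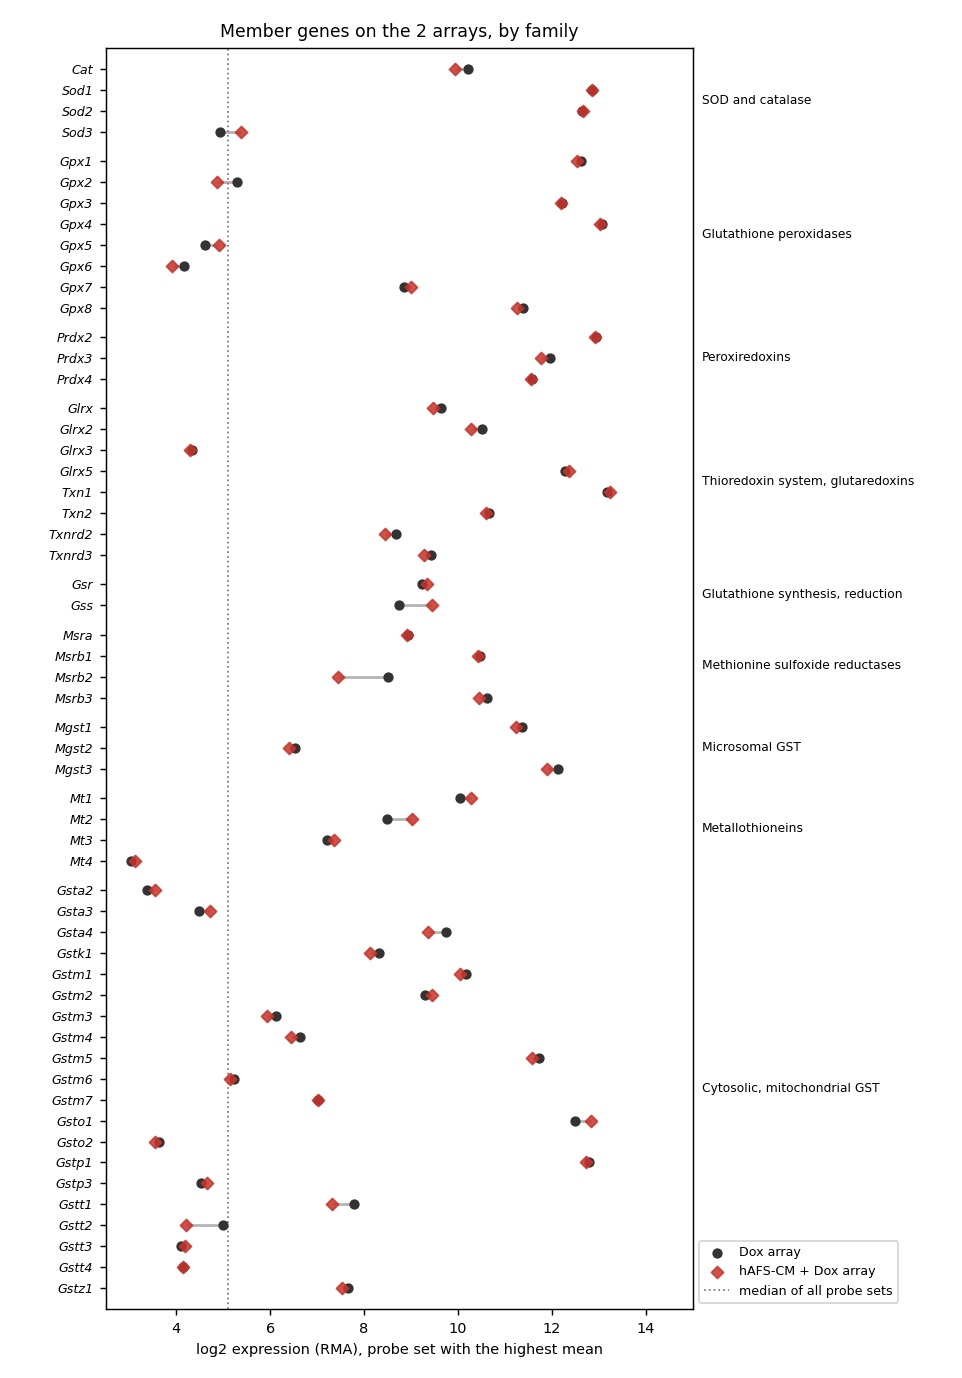
Log2 expression (RMA) of the 56 member genes on the Dox array (dark circles) and the hAFS-CM + Dox array (red diamonds), at the brightest probe set of each gene, grouped by family, with a dotted line at the median of all values, 5.10. The points of most genes overlap, and the widest gap is that of *Msrb2*, at 8.51 for Dox and 7.45 for hAFS-CM + Dox.

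The intracellular superoxide dismutases were alike on the arrays. *Sod1*, the copper and zinc enzyme of the cytosol, had 12.86 for Dox and 12.85 for hAFS-CM + Dox, a log2 ratio of -0.01. *Sod2*, the manganese enzyme of mitochondria and a known target of NF-κB, had 12.64 and 12.67, a log2 ratio of 0.03. Other probe sets of *Sod1* ranged from -0.08 to 0.27 and those of *Sod2* from -0.22 to 0.33. At these strong probe sets neither gene differed by as much as the SD between probe sets. *Sod3*, the secreted enzyme that binds to the cell surface and matrix, had 4.93 for Dox and 5.39 for hAFS-CM + Dox, a log2 ratio of 0.46. Its other probe set had -0.01, and both lay close to the median of all values.

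*Cat*, which codes for catalase, was lower with hAFS-CM + Dox at both of its probe sets. The first had 10.22 for Dox and 9.93 for hAFS-CM + Dox, a log2 ratio of -0.29, and the second had -0.28. The probe sets thus differed by 0.01, and each ratio was beyond the SD between probe sets. Catalase is abundant in red blood cells. The 3 measured erythroid markers were at 4.23 or less for Dox and 4.43 or less for hAFS-CM + Dox, below the median of all values on both arrays.

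Of the 8 glutathione peroxidases, 1 was higher and 2 were lower beyond the SD between probe sets, and all of these had values near or below the median of 5.10. The median of the family was -0.07. Beyond that SD, 18.5% of all genes were higher and 16.3% were lower. *Gpx1*, the main cytosolic enzyme, had 12.63 for Dox and 12.54 for hAFS-CM + Dox. *Gpx4*, which reduces lipid peroxides in membranes and so restrains ferroptosis, had 13.07 and 13.02 at one probe set, and its other probe set gave the same log2 ratio of -0.05. *Gpx3*, a secreted enzyme, had a log2 ratio of -0.01. *Gpx7*, an enzyme of the endoplasmic reticulum, had 8.85 for Dox and 8.998 for hAFS-CM + Dox, a log2 ratio of 0.15. *Gpx8*, of the same compartment, had 11.38 and 11.26, a log2 ratio of -0.12. The ratios of these 5 well-measured genes were all smaller than the SD between probe sets. *Gpx2*, an enzyme of the gut epithelium, had 5.29 for Dox and 4.86 for hAFS-CM + Dox, a log2 ratio of -0.43, and the low-signal genes *Gpx5* and *Gpx6* had 0.29 and -0.26.

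The 3 measured peroxiredoxin genes had log2 ratios below 0 that did not pass the SD between probe sets, and 1 of the 3 was above 0 once a lowess trend on mean expression was removed. *Prdx3*, which removes peroxide in mitochondria, had 11.96 for Dox and 11.77 for hAFS-CM + Dox, a log2 ratio of -0.18. *Prdx2*, a cytosolic enzyme that is also abundant in red blood cells, had 12.93 and 12.92, while its other probe set had -0.22. *Prdx4*, of the endoplasmic reticulum, had 11.58 and 11.55 at its strongest probe set, a log2 ratio of -0.03. A second probe set of *Prdx4* had 9.35 for Dox and 8.76 for hAFS-CM + Dox, a log2 ratio of -0.59, and the others had -0.22 and -0.27. This was the widest disagreement between probe sets of any member, with a range of 0.56.

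The cytosolic and mitochondrial thioredoxins differed by less than the SD between probe sets at their brightest probe sets. *Txn1*, the cytosolic thioredoxin that feeds peroxiredoxins and ribonucleotide reductase, had 13.17 for Dox and 13.24 for hAFS-CM + Dox. *Txn2*, its mitochondrial counterpart, had a log2 ratio of -0.05 at the strongest of 3 probe sets and -0.22 at the lowest. *Txnrd2*, the mitochondrial reductase, had 8.67 and 8.46, a log2 ratio of -0.22, but the other 3 of its 4 probe sets were above 0, at 0.01, 0.03 and 0.15. *Txnrd3*, a reductase with a glutaredoxin domain that is best known from the testis, had 9.43 and 9.28, a log2 ratio of -0.15, while its other probe sets had 0.13 and 0.23. For neither reductase did the probe sets give 1 direction.

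Glutaredoxins remove glutathione from proteins or carry iron-sulphur clusters. *Glrx2*, a mitochondrial form, had 10.50 for Dox and 10.27 for hAFS-CM + Dox, a log2 ratio of -0.24, with -0.13 at the highest of its 3 probe sets. *Glrx*, the cytosolic form, had 9.64 and 9.46, a log2 ratio of -0.18, and -0.12 at its other probe set. All probe sets of both genes were lower with hAFS-CM + Dox. *Glrx5*, which builds iron-sulphur clusters in mitochondria, had a log2 ratio of 0.08. Among the 8 genes of the thioredoxin and glutaredoxin group, *Glrx2* and *Txnrd2* were lower and none was higher beyond the SD between probe sets. *Txnrd2* passed at only 1 of its 4 probe sets. The group had a median of -0.10, and over all genes 16.3% were lower and 18.5% were higher beyond that SD.

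*Gss*, which codes for glutathione synthetase, the enzyme of the second and last step of glutathione synthesis, had the highest log2 ratio of any member. Its brightest probe set had 8.74 for Dox and 9.45 for hAFS-CM + Dox, a log2 ratio of 0.71, or 1.64-fold. The other had 8.04 and 8.77, a log2 ratio of 0.73. The probe sets thus agreed within 0.02 of each other, far closer than the SD between probe sets, and *Gss* ranked 249 from the highest log2 ratio among all 18193 genes. *Gsr*, glutathione reductase, had 9.23 and 9.34 at its strongest probe set, a log2 ratio of 0.11, and 0.14 at the other. The step before *Gss* is made by glutamate-cysteine ligase, whose subunit genes *Gclc* and *Gclm* had log2 ratios of -0.07 and -0.19. Both lay within the SD between probe sets, while *Gss* lay beyond it.

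The 250 bases before the start of *Gss* are shown because this gene had the highest log2 ratio, on GRCm38.p6 at chr2:155592811-155593060, minus strand, from RefSeq. Capitals would mark a match to a metal response element (TGCACNC or TGCGCNC), the core of an antioxidant response element (TGACNNNGC), a STAT motif (TTCNNNGAA) or the NF-κB motif (GGG and CC with any 5 bases between them), on either strand. None of these letters was found in this stretch, and with the 50 bases after the start included there was 1 match to the NF-κB letters.
Gss: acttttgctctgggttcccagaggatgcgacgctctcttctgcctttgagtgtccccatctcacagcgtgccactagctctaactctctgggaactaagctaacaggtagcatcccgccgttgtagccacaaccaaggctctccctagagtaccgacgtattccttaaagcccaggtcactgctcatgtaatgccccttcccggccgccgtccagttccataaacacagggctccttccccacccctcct

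*Msrb2*, which codes for the mitochondrial methionine sulfoxide reductase B, had the largest difference of all members. Its only probe set had 8.51 for Dox and 7.45 for hAFS-CM + Dox, a log2 ratio of -1.07, or 2.10-fold lower. It ranked 31 from the lowest log2 ratio among all genes, just past the 2-fold threshold, and the member nearest below the threshold was *Gstt2* at 1.72-fold. With a single probe set, no second measurement of *Msrb2* was at hand. The other 3 methionine sulfoxide reductases differed little. *Msra*, which reduces the S form of methionine sulfoxide, had 8.94 for Dox and 8.91 for hAFS-CM + Dox. *Msrb1*, the selenoprotein of the cytosol and nucleus, had 10.46 and 10.42. *Msrb3*, of the endoplasmic reticulum and mitochondria, had 10.62 and 10.46, and its other probe set had 0.02. Of the 10 cardiomyocyte markers, 9 were below 0 and 3 were lower beyond the SD between probe sets, with a median log2 ratio of -0.11. Their summed level, as a log2 value, was 17.65 for Dox and 17.55 for hAFS-CM + Dox, none was low-signal, and their part in the value of *Msrb2* was not tested.

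The 250 bases before the start of *Msrb2* are shown because it was the only member past 2-fold, on GRCm38.p6 at chr2:19371386-19371635, plus strand, from RefSeq. Capitals mark 1 match to the NF-κB letters, from 145 to 136 bases before the start, the only match in this stretch to the same motifs. With the 50 bases after the start included, which are not shown, there was also 1 match to the antioxidant response element core. The NF-κB letters were present in 50.8% of all 32851 promoter windows of 300 bases, so that such a match is common. The antioxidant response element core was present in 12.4% of them.
Msrb2: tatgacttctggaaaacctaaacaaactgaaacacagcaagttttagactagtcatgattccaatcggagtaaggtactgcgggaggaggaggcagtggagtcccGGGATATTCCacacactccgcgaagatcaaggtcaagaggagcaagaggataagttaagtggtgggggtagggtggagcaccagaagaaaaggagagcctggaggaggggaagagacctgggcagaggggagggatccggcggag

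The 3 microsomal glutathione transferases, membrane enzymes that act on lipid peroxides and leukotrienes, all had log2 ratios below 0. *Mgst3* had 12.14 for Dox and 11.89 for hAFS-CM + Dox, a log2 ratio of -0.24, and -0.28 at its other probe set. *Mgst1* had 11.36 and 11.24, and *Mgst2* had 6.54 and 6.41. The last pair of ratios, -0.11 and -0.13, were within the SD between probe sets. *Mgst3* alone passed it, and at both of its probe sets.

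Of the 20 soluble glutathione transferase genes, 2 were higher and 3 were lower beyond the SD between probe sets, with a median of -0.09. The shares over all genes were 18.5% higher and 16.3% lower. *Gsta4*, which clears the lipid aldehyde 4-hydroxynonenal, had 9.74 for Dox and 9.36 for hAFS-CM + Dox, a log2 ratio of -0.38. *Gstt1*, a theta class enzyme, had 7.79 and 7.32, a log2 ratio of -0.47. *Gstt2*, of the same class, had 4.99 and 4.20, a log2 ratio of -0.79 in a low-signal gene. *Gstt1* and *Gsta4* were the well-measured transferases with the largest differences, each from 1 probe set. *Gsto1*, an omega class enzyme that also reduces dehydroascorbate, had 12.49 for Dox and 12.83 for hAFS-CM + Dox, a log2 ratio of 0.34. Its other probe set had 12.21 and 12.18, a log2 ratio of -0.03, so that the higher value was seen at only 1 of 2 probe sets. *Gstk1*, found in mitochondria and peroxisomes, had 8.33 and 8.13, *Gstp1* of the pi class had -0.07 and *Gstz1*, which degrades tyrosine products, had -0.13. The low-signal gene *Gsta3* had 0.23 and -0.21 at its probe sets.

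The 7 genes of the mu class, *Gstm1* to *Gstm7*, lie in 1 cluster on chromosome 3, and none passed the SD between probe sets at its brightest probe set. At these probe sets *Gstm4* and *Gstm3* had the lowest log2 ratios, -0.20 and -0.19, and *Gstm2* had the highest, 0.15. The other probe set of *Gstm3*, below 5.10 on both arrays, had 0.29, beyond that SD and of opposite sign. The 4 genes of the theta class lie side by side on chromosome 10, between *Ddt* and *Mif*. Along this row *Gstt3* had 0.10, *Gstt1* had -0.47, *Gstt4* had -0.01 and *Gstt2* had -0.79, while *Ddt* and *Mif* at the ends had -0.08 and 0.05. *Gstt1* and *Gstt2* lay beyond the SD between probe sets, but 3 of the 4 theta genes were low-signal. Genes of these classes are close relatives, and probe sets with an _s_at or _x_at ending can bind more than 1 of them. The probe sets called less specific below are all those with an _s_at, _x_at or _a_at ending.

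All 4 metallothionein genes, which lie next to each other on chromosome 8, had log2 ratios above 0, with a median of 0.19, and 3 of 4 did when the less specific probe sets were left out. Metallothioneins are known to be induced by zinc through the factor MTF1, by glucocorticoids and by IL-6. *Mt2* had 8.48 for Dox and 9.03 for hAFS-CM + Dox, a log2 ratio of 0.55, or 1.47-fold, from its only probe set. *Mt1* had 10.05 and 10.29, a log2 ratio of 0.24, at a probe set of the less specific kind, and 5.28 and 5.14, a log2 ratio of -0.14, at its other. *Mt1* therefore counted among the higher genes only at the stronger probe set. *Mt3*, best known from the brain, had 7.22 and 7.36, and *Mt4*, of squamous epithelia, had 3.04 and 3.12, a low signal. Of the 4 genes, *Mt2* and *Mt1* passed the SD between probe sets.

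The 250 bases before the start of *Mt2* are shown because they hold matches to the metal response element. Zinc is known to act on metallothionein genes through this element. The stretch lies on GRCm38.p6 at chr8:94172368-94172617, plus strand, from RefSeq. Capitals mark 3 matches to TGCACNC or TGCGCNC on either strand, which begin 223, 128 and 50 bases before the start, and 1 match to TGACNNNGC, which begins 79 bases before it. No match overlapped another.
Mt2: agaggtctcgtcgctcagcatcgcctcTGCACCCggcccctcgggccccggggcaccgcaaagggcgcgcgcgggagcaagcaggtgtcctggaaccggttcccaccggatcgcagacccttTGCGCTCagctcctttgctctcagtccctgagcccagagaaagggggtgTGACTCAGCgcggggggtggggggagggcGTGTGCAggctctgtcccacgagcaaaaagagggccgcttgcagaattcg

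With 50 bases after the start included, *Mt2* held 4 matches to the metal response element, *Mt1* held 3, and *Mt3* and *Mt4* held 1 each. Of all 32851 windows of this kind, 25.7% held at least 1 match, 1.97% held at least 3 and 0.517% held at least 4. Over the 67 windows found for 51 of the 56 members, 29.9% held a metal response element and 10.4% the antioxidant response element core, beside 25.7% and 12.4% of all windows. The STAT letters were held by 8.96% of member windows and 8.3% of all windows, and the NF-κB letters by 67.2% and 50.8%. Several members have more than 1 window, so that these shares count some sequence more than once.

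**Figure D3:**
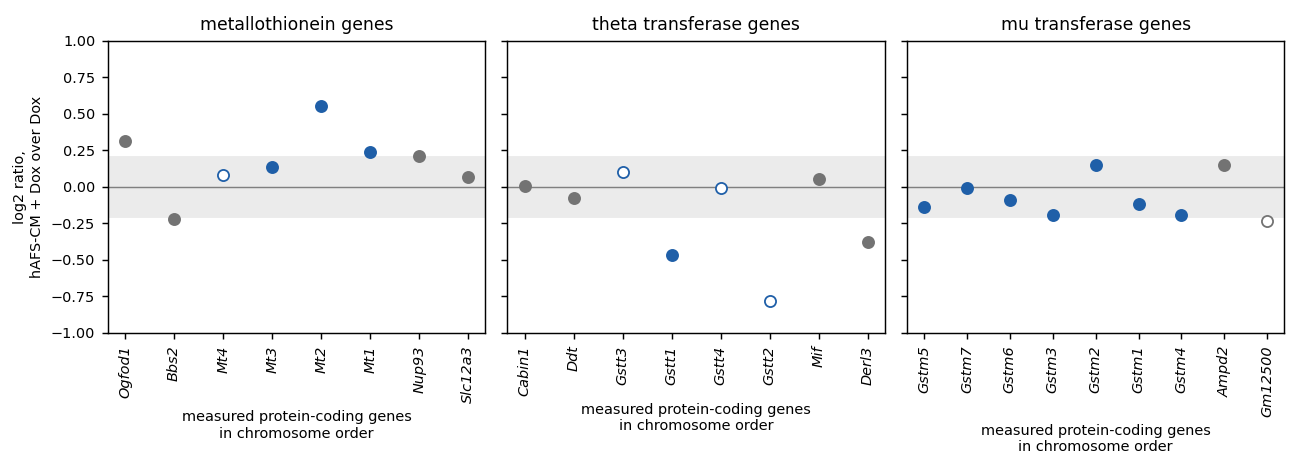
Log2 ratio of hAFS-CM + Dox over Dox (vertical) for the metallothionein, theta transferase and mu transferase genes (blue) and their neighbours (grey), with measured protein-coding genes in chromosome order (horizontal). Open points are genes below 5.10 on both arrays and the grey band is the SD between probe sets (0.20); the 4 metallothionein points lie above 0 (3 of 4 without the less specific probe sets), *Gstt1* and *Gstt2* lie below the band, and all 7 mu class points lie inside it.

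Of the 56 genes, 24 had several probe sets, and the range of log2 ratios within a gene had a median of 0.20. No member had probe sets that differed by more than 1, and the largest range was 0.56, in *Prdx4*. Probe sets differed in sign for 11 of the 24 genes. These were *Sod1*, *Sod2*, *Sod3*, *Txnrd2*, *Txnrd3*, *Msrb3*, *Mt1*, *Gsta3*, *Gstm1*, *Gstm3* and *Gsto1*. *Gss*, *Cat*, *Mgst3*, *Glrx2* and *Glrx* were the members whose probe sets kept 1 direction with the largest ratios at the probe set of highest mean. Of these, *Gss*, *Cat* and *Mgst3* passed the SD at every probe set.

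**Figure D4:**
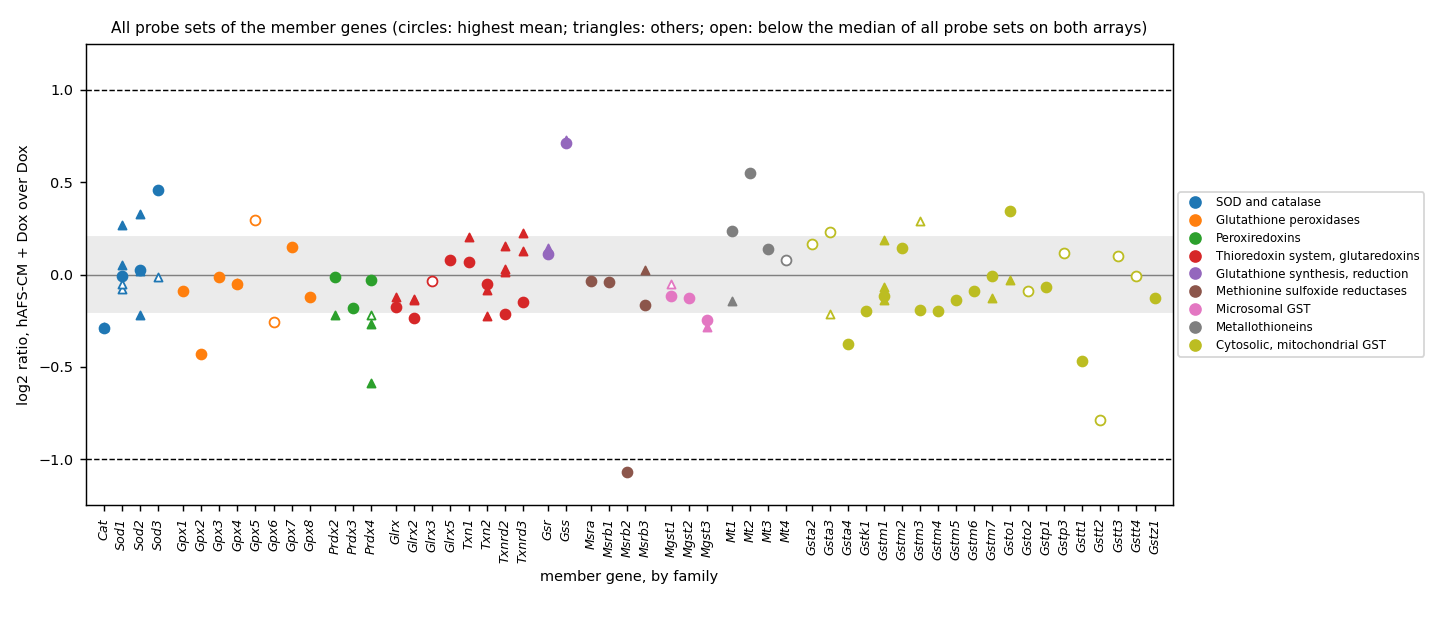
Log2 ratio of hAFS-CM + Dox over Dox (vertical) for all 94 probe sets of the 56 member genes (horizontal), coloured by family. Circles are the probe sets with the highest mean, triangles the others, and open symbols lie below 5.10 on both arrays; the grey band is the SD between probe sets (0.20) and dashed lines mark 2-fold, which only *Msrb2* passes.

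Other genes of the same pathways, from lists that the symbol rule leaves out, were also examined and none was 2-fold higher or lower. Beside the counts of each list, 18.5% of all genes were higher and 16.3% were lower beyond the SD between probe sets. Of 13 other glutathione genes, 2 were higher and 1 was lower beyond the SD between probe sets, with a median of -0.07. The 2 were *Ggct*, which breaks down glutamyl peptides, with 0.75 (-0.13 at the lowest of its 3 probe sets), and *Slc7a11*, the cystine importer that supplies cysteine for glutathione, with 0.69 (4.43 for Dox and 5.12 for hAFS-CM + Dox) and 0.37 at its other probe set. *Chac1*, which degrades glutathione, had -0.24. *Esd* and *Ggt1*, also on this list, were not analysed. Of 14 other thioredoxin, peroxiredoxin and superoxide genes, 4 were higher and 3 were lower, with a median of -0.09. *Txnrd1*, the cytosolic thioredoxin reductase, had 11.49 and 11.83, a log2 ratio of 0.34, and up to 0.51 among its 3 probe sets. *Txnl4a*, a splicing factor with a thioredoxin fold, had 0.40, and *Selenop*, the selenium carrier, had -0.38.

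Of 12 genes that supply NADPH, 2 were higher and 3 were lower, with a median of -0.03. *Idh1*, the cytosolic isocitrate dehydrogenase, had the largest difference among them, -0.54, and -0.68 at its other probe set. *Aldh1l2* had 0.29 and *Me2* had -0.29. *G6pdx*, also on this list, was not analysed. Of 12 regulators and targets of NRF2, the factor that binds antioxidant response elements, 3 were higher and 2 were lower, with a median near 0. *Bach1*, a repressor at these elements, had 0.65 (0.05 at its other probe set), *Hmox1*, heme oxygenase, had 0.57, and the aldo-keto reductase gene *Akr1b8* had 0.37. *Nfe2l2*, which codes for NRF2, had 0.11. *Ftl1*, also on this list, was not analysed. *Nqo1*, a classical target as *Hmox1* is, had 8.17 and 7.89, a log2 ratio of -0.28, so that these targets had opposite signs.

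Zinc and copper genes other than metallothioneins numbered 13, of which 5 were higher and 1 was lower beyond the SD between probe sets, with a median of 0.04. The zinc importer genes *Slc39a1* and *Slc39a10* had 0.51 and 0.50, and *Slc39a8* had -0.50. *Slc39a14*, a zinc importer that is known to respond to IL-6, had 7.89 for Dox and 8.23 for hAFS-CM + Dox, a log2 ratio of 0.34, with -0.05 to 0.71 over its 4 probe sets. *Mtf1*, which codes for the zinc sensor of the metallothionein genes, had -0.03, and *Slc30a1*, a zinc exporter that MTF1 is known to control, had -0.16. Both lay within the SD between probe sets. The part of zinc or MTF1 in the value of *Mt2* was not tested.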

How the data were processed

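RNA of mNVCM was hybridised to 1 Affymetrix mouse array for Dox and 1 for hAFS-CM + Dox. RMA and quantile normalization were done by the authors, and the deposited values are log2 values, from 2.37 to 15.05, used as they stand. The log2 scale was inferred from this range, and the RMA software is not given in the sources used here. Gene symbols came from the platform annotation, updated by Entrez ID to RefSeq genes of GRCm38.p6, which matched 34741 of 34945 probe sets with 1 gene. The annotation symbol or the updated symbol had to meet the rule. No test was possible with 1 array per condition, precision is limited by the number of arrays, and counts past 2-fold, the threshold of the study's methods, are given beside those of all genes.

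The genes named with both values are members past 2-fold, up to 4 per family with the largest log2 ratios among those at or above the median signal, and *Sod1*, *Sod2*, *Sod3*, *Cat*, *Gpx1*, *Gpx4*, *Mt1* and *Mt2*. From each list of other pathway genes, up to 3 with the largest log2 ratios at or above that signal are named. *Gstt2*, *Txn1*, *Mt4*, *Prdx4* by probe set, *Gsto1* by probe set, *Gclc*, *Gclm*, *Nfe2l2*, *Nqo1*, *Slc39a14*, *Acss2*, *Myh7b*, *Mtf1*, *Slc30a1*, *Ddt* and *Mif* were added after the values were seen. The members and lists were chosen with earlier results of these data known. Promoter windows, 250 bases before to 50 after a start, came from RefSeq. The counting steps and the SD between probe sets were tested on simulated arrays. The motif search was tested only on short made-up sequences and only for TGCACNC. Calculations used pandas 2.3.3 and numpy 2.4.6 under Python 3.11.15, lowess of statsmodels 0.14.6, and matplotlib 3.10.9 for plots.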

Additional observations from a re-analysis of the deposited data

How the results depend on the processing

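The alternatives were other fold thresholds, minimum signals of 5.10 (the median of all values) and 3.80 (their 25th percentile), averaging a gene's probe sets or taking its most changed one, leaving out less specific probe sets, centring, removal of a lowess trend (span 0.3) and a match through gene synonyms. At 1.5-fold, 1 member was higher and 2 were lower, and at 3-fold 0 were lower. Members higher beyond the SD between probe sets numbered 4 after averaging and 11 with the most changed probe set, against 7. The median of the superoxide dismutases and catalase was 0.30 with the most changed probe set, against 0.01. That of the methionine sulfoxide reductases was -0.62 without the less specific probe sets, against -0.10, since only 2 of 4 genes were left. The other 78 of 80 recomputed medians, over 9 families and all members, moved by less than the SD between probe sets. A change of sign was seen in none of the 80. Of 251 recomputed values of named members, 10 moved by more than that SD. *Msrb2* stayed 2-fold lower, and no member was 2-fold higher, in every alternative that kept the 2-fold threshold. Signal below the median of all values on both arrays limits what can be said of 11 members. Leaving out an array was not possible, and no paired analysis was possible because each condition has only 1 array.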

Other observations

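The members were also grouped by site and by selenium, with groups chosen after the values were seen. Of 8 genes whose products act mainly in mitochondria, 6 had log2 ratios below 0 and 3 (*Msrb2*, *Glrx2* and *Txnrd2*) were lower beyond the SD between probe sets, with a median of -0.19, beside -0.05 for all members. Of all genes, 48.7% were below 0 and 16.3% were lower beyond that SD. *Txnrd2* was lower at only 1 of its 4 probe sets, and after averaging each gene's probe sets 1 of the 8 genes, *Msrb2*, was lower beyond that SD. *Sod2* and *Glrx5* were the 2 above 0. Of 5 genes whose products act in the secretory pathway or outside the cell, 1, *Sod3*, was higher beyond that SD and none was lower, with a median of -0.01, while after averaging 1 was lower. At their brightest probe sets the 7 genes that code for selenoproteins, which need selenocysteine at their active site, had log2 ratios below 0, from -0.43 for *Gpx2* to -0.01 for *Gpx3*, with a median of -0.09, but 6 of the 7 did after removal of the lowess trend, after averaging and with the most changed probe set. *Txnrd2* was above 0 at 3 of its 4 probe sets and *Txnrd3* at 2 of 3. *Gpx2* passed the SD between probe sets, and *Txnrd2* did so at 1 probe set. *Selenop*, whose product carries selenium between tissues, had 12.44 for Dox and 12.06 for hAFS-CM + Dox.

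*Gss* lies between *Acss2* and *Myh7b* on chromosome 2. *Acss2*, an acetyl-CoA synthetase, had 8.47 for Dox and 7.93 for hAFS-CM + Dox, a log2 ratio of -0.54, and *Myh7b*, a muscle myosin, had 5.68 and 5.02, a log2 ratio of -0.65. The higher value of *Gss* was therefore not shared by the measured genes beside it.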
